A study of Oryza sativa Indica Group with 4 samples.

Results

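The loci described here are the 194 rice loci whose transcript level in leaf blades was at least 2-fold lower at 30 °C than at 25 °C in both the wild-type and the togr1-1 mutant. They were chosen from the deposited read counts. Reads were summed over the transcript models of a locus, 1 read was added to each sum, and the sums were scaled by the total reads of the library. A locus entered when it had at least 100 reads in each genotype's pair of libraries and a ratio of 30 °C over 25 °C of at most 0.5 in each genotype. Of 28458 loci with a read, 13040 met the read minimum, and the 194 loci were 1.49% of these.

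Seedlings of the indica variety Zhongxian 3037 and of togr1-1, a spontaneous recessive dwarf mutant isolated from that variety, were compared at both temperatures. The labels call the mutant tog1. It carries a glycine to valine substitution in TOGR1 (LOC_Os03g46610), a nucleolar DEAD-box RNA helicase that acts in ribosomal RNA processing. All seedlings were 22 days old, had spent the last 18 days at 25 or 30 °C in chambers with 12 h of light and 80% humidity, and gave leaf blades of the fourth leaves. The leaf blades of a treatment were pooled into 100 mg, and each of the 4 treatments gave 1 RNA-seq library of 11959859 to 12371522 reads counted on transcripts. The libraries are written WT-25, WT-30, togr-25 and togr-30, for the genotype and the temperature in °C.

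Plants kept warm for many days differ from plants given a short heat shock: growth rate, leaf development and carbon use shift together with the messenger RNA pool. A transcript level is the balance of synthesis and decay, averaged over the cells of the sample. DEAD-box helicases remodel RNA, and TOGR1 belongs to those that assist the maturation of the small ribosomal subunit, which every growing cell needs to make protein.

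The files do not pair the locus identifiers with gene names, and 0 of the 28458 loci matched the RefSeq gene table used here. The members are therefore given by identifier, and gene families and the markers of leaf and other tissues were not assigned. The exception is LOC_Os03g20120, which the study names as a homologue of GolS2. Galactinol synthase is the enzyme that makes the galactosyl donor for raffinose and related sugars, which protect cells against water loss and heat. In pooled leaf tissue, fewer cells of a type and less RNA per cell cannot be told apart. With 1 library per condition there are no replicates, and every interval of a ratio is a 95% Clopper-Pearson interval that covers counting error only.

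The temperature ratios chose the members, so they are given as a description and were not tested. Both genotypes held falls well beyond the limit of 2-fold. In the wild-type the median log2 ratio of 30 over 25 °C was -1.66, a 3.15-fold fall, and the middle of the members, from the lower to the upper quartile, fell between 2.50- and 5.35-fold. In togr1-1 the median was -1.47, a 2.77-fold fall, with quartiles of 2.26- and 3.70-fold. Over all 13040 loci, scaled in the same way, the median log2 ratios were 0.10 and 0.05.

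**Figure D1:**
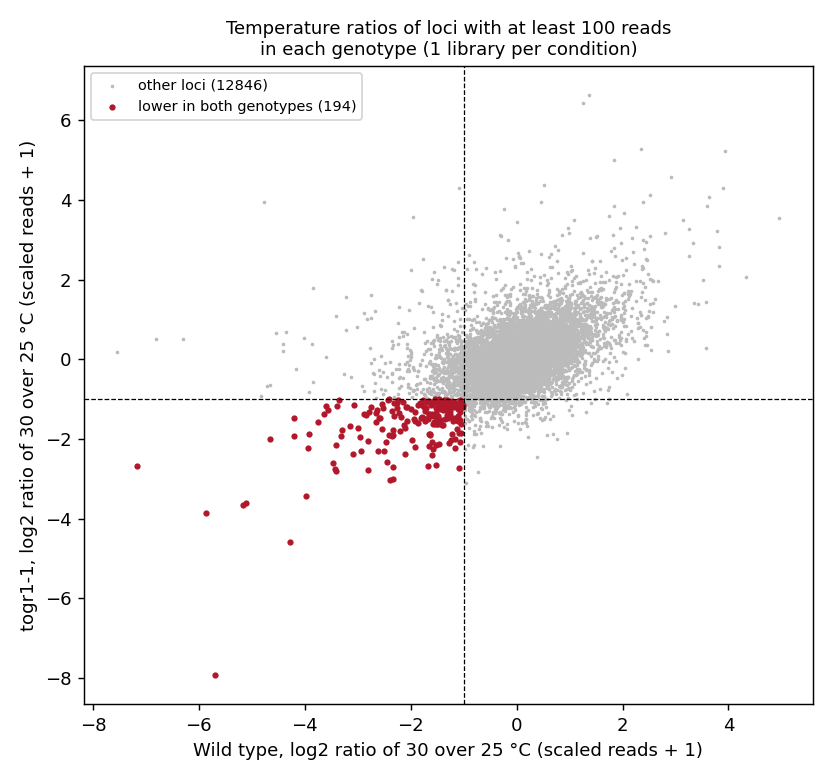
Log2 ratio of 30 over 25 °C in the wild-type (x axis) and in togr1-1 (y axis) for each of the 13040 loci with at least 100 reads in each genotype, 1 library per condition. Dashed lines mark the ratio of 0.5, and the 194 red points in the lower left corner are the loci described here, which reach -7.17 in the wild-type, on 2 reads at 30 °C. The lowest point in togr1-1 rests on a count of 0 with 1 read added, and is no bound.

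Few loci fell this far in either genotype. In the wild-type, 735 loci (5.64% of the 13040) had a ratio of at most 0.5, and in togr1-1 464 loci (3.56%) did. The members were 26.4% of the wild-type list and 41.8% of the togr1-1 list. They are the overlap of the 2 lists by the rule, and its size was not tested. The depth of the fall was graded. In the wild-type, 121 members were 2- to 4-fold lower, 46 were 4- to 8-fold lower and 27 were more than 8-fold lower. In togr1-1 the same bands held 154, 32 and 8 members. At most 0.25 was the ratio of 1.24% of all loci in the wild-type and 0.383% in togr1-1. Altogether 25 members were at least 4-fold lower in both genotypes.

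The fall was larger in the wild-type for 126 members and larger in togr1-1 for 68. For 113 members the falls of the 2 genotypes lay within 1.5-fold of each other. Where they differed by at least 2-fold, the wild-type had the larger fall in 41 members and togr1-1 in 6. A fall of more than 8-fold in the wild-type met one of less than 4-fold in togr1-1 at 13 loci, and the reverse was found at 0. These differences compare ratios that the rule used, and they were not tested.

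The libraries of the 2 temperatures separated at nearly all members. Scaled by library size, both 25 °C libraries stood above both 30 °C libraries at 192 of the 194, beside 20.2% of all 13040 loci. The exceptions were LOC_Os02g52730 and LOC_Os03g22230, where togr1-1 at 30 °C stood above the wild-type at 25 °C. At 130 members the lower 25 °C library was at least 2-fold above the higher 30 °C library (0.997% of the 13040 loci, every one a member). The rule used this contrast, so nothing is read from these shares.

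The members took 1.75% of the wild-type library and 1.85% of the togr1-1 library at 25 °C, and 0.511% and 0.675% at 30 °C. A median member had 330.5 reads in WT-25, 85.5 in WT-30, 329 in togr-25 and 99.5 in togr-30. Per length, the median RPKM (reads scaled by transcript length and library size) was 18.0 in WT-25 and 18.6 in togr-25, and 5.02 in WT-30 and 5.94 in togr-30. The median of all 13040 loci was between 13.6 and 15.0 in the 4 libraries. Members met the read minimum mainly through their 25 °C libraries, so these levels follow in part from the rule.

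LOC_Os12g08810 had the most reads of all members. It had 31813 reads in WT-25 and 13043 in WT-30, and 39954 in togr-25 and 15946 in togr-30, which is 14.9% to 21.4% of all member reads in a library. Both 25 °C libraries were above both 30 °C libraries, and the falls were close, 2.39-fold in the wild-type and 2.46-fold in togr1-1. Without this locus the members took 1.49% and 1.52% of the libraries at 25 °C and 0.402% and 0.544% at 30 °C. LOC_Os09g36930, the next in reads, had 15984 reads in WT-25 and 2515 in WT-30, and 12047 in togr-25 and 4897 in togr-30. Here the fall was 6.22-fold in the wild-type and 2.41-fold in togr1-1. The log2 ratio of togr1-1 over the wild-type was -0.43 at 25 °C (interval -0.46 to -0.39) and 0.94 at 30 °C (0.87 to 1.01), so the genotypes were in opposite order but less than 2-fold apart.

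**Figure D2:**
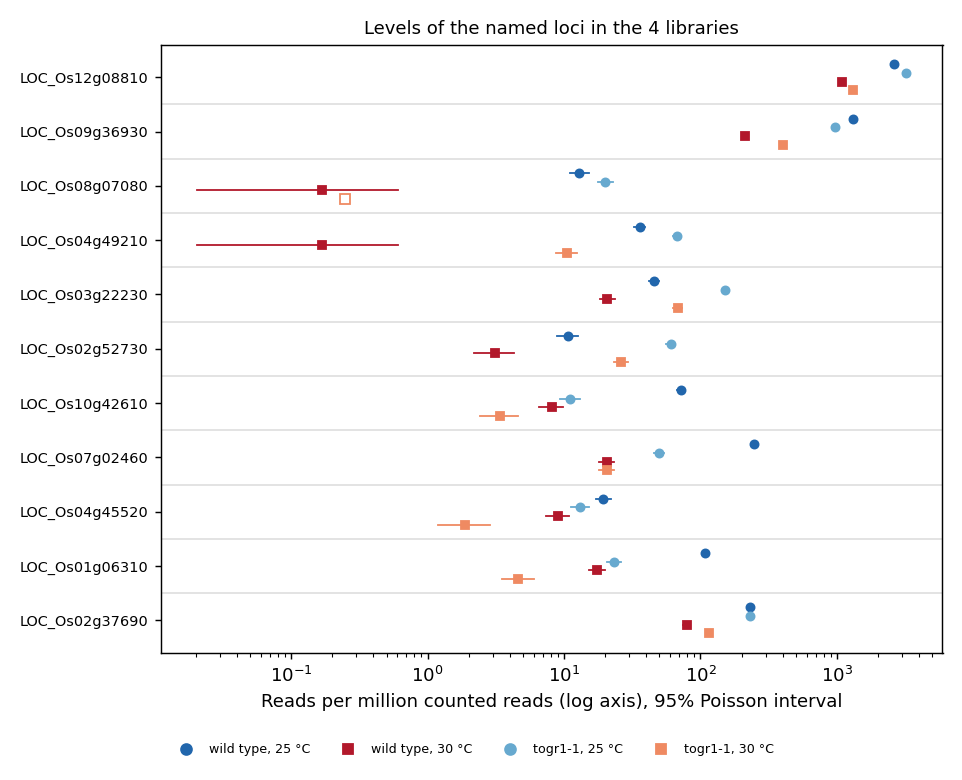
Reads scaled to a common library size (RPM, log axis) of 11 members in each of the 4 libraries, with 95% Poisson intervals, which cover counting error only. The open square marks 0 reads, drawn at the 3 reads that a count of 0 allows. At LOC_Os03g22230 and LOC_Os02g52730 the togr1-1 point at 30 °C lies to the right of the wild-type point at 25 °C, and at the other 9 loci both circles (25 °C) lie to the right of both squares (30 °C).

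The largest falls reached counts near 0. LOC_Os08g07080 had 158 reads in WT-25 and 2 in WT-30, and 248 in togr-25 and 0 in togr-30. In the wild-type the fall was 51.9-fold with 1 read added, as in the rule. Without the added read it was 77.3-fold, with an interval from 21.1- to 644-fold. In togr1-1 the interval began at a 65.5-fold fall, and with 3 reads in place of the count of 0 the fall was 81.1-fold. No other member had a count of 0 in any library. LOC_Os04g49210 had 439 reads in WT-25 and 2 in WT-30, and 838 in togr-25 and 127 in togr-30. With 1 read added, this locus was 144-fold lower in the wild-type and 6.43-fold lower in togr1-1, which kept a clearly measurable level. Without the added read the wild-type fall was 215-fold (interval 59.1- to 1780-fold).

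Beside LOC_Os08g07080, 5 members were more than 8-fold lower in both genotypes, and they are named here after their values had been seen. LOC_Os09g10340 fell from 418 to 6 reads in the wild-type and from 712 to 47 in togr1-1. LOC_Os05g30500 fell from 454 to 22 and from 682 to 27. LOC_Os01g32460 fell from 735 to 19 and from 993 to 76. At these loci togr1-1 had more reads than the wild-type at both temperatures, although 22 and 27 reads lie within counting error of each other. LOC_Os09g25060 fell from 669 to 18 and from 1259 to 100 reads, and LOC_Os05g49240 from 351 to 21 and from 638 to 57, again with more reads in togr1-1.

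Counting error leaves the limit of 2-fold uncertain for a part of the members. The total reads of a member over the 4 libraries ranged from 207 to 100756 with a median of 911. The counting interval of the ratio crossed the 2-fold line for 45 members in the wild-type and 62 in togr1-1, 82 in at least 1 genotype. The member nearest to the limit was LOC_Os02g37690, with 2819 reads in WT-25, 947 in WT-30, 2851 in togr-25 and 1395 in togr-30, and a ratio of 0.499 in togr1-1. The nearest locus left out was LOC_Os04g45090, with 291, 142, 358 and 167 reads in the same order and a wild-type ratio just above 0.5. Within 0.1 on the log2 scale of the limit lay 41 loci inside and 44 outside, so the edge of the list is not a gap in the data. Another 617 loci passed both ratios but not the read minimum, with a median of 20 reads over the 4 libraries.

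LOC_Os03g20120, the homologue of GolS2, had 380 reads in WT-25 and 152 in WT-30, and 615 in togr-25 and 279 in togr-30. Both genotypes were lower in the warm, and togr1-1 was above the wild-type at each temperature. The wild-type fell by 1.29 on the log2 scale (interval of the ratio -1.57 to -1.02) and togr1-1 by 1.11 (-1.32 to -0.91). The log2 ratio of togr1-1 over the wild-type was 0.68 at 25 °C (0.49 to 0.86) and 0.85 at 30 °C (0.56 to 1.15), less than 2-fold at both. The other GolS2 homologue that the study names, LOC_Os07g48830, was not a member, with 101 reads in WT-25, 174 in WT-30, 110 in togr-25 and 95 in togr-30. Its log2 ratio was 0.81 in the wild-type and -0.18 in togr1-1, so the 2 homologues went opposite ways in the wild-type. The APX2 homologue LOC_Os07g49400, an ascorbate peroxidase that removes hydrogen peroxide, had 255 reads in WT-25, 199 in WT-30, 336 in togr-25 and 164 in togr-30. With ratios of 0.798 and 0.499 it passed the limit in togr1-1 alone and was left out. The study measured the GolS2 and APX2 homologues by quantitative PCR after a shorter and hotter heat stress. There they rose in togr1-1, and in the wild-type much less or not significantly. Temperature and time were unlike those here, so the values are not set against each other. TOGR1 itself was not a member.

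The rule did not set togr1-1 against the wild-type at the same temperature, and these contrasts were tested. The same 4 libraries chose the members, so the tests are not independent of that choice. The members' shares that differed are therefore set beside those of other loci as a description. A locus differed when a two-sided exact binomial test on the reads of the 2 libraries, adjusted by Benjamini-Hochberg over all loci with a read, gave an adjusted p of at most 0.001 and the difference was at least 2-fold. Such a test compares 2 libraries and not the genotypes, and reads are taken as independent of each other. The 2 contrasts are also tied: the log2 ratio of the genotypes at 30 °C is that at 25 °C plus the difference of the 2 temperature ratios, both of which the rule bounded.

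At 25 °C, 18 of the 194 members (9.28%) differed between togr1-1 and the wild-type, 7 higher (3.61%) and 11 lower (5.67%) in togr1-1. Of all loci tested 4.54% differed, and of the 13040 loci with enough reads 4.70%, 1.28% higher and 3.42% lower. The members' shares were above those of the 13040 loci in each direction. This was not particular to them: of the 308 loci at least 2-fold higher at 30 °C in both genotypes, 54 (17.5%) differed at 25 °C, 8 higher and 46 lower in togr1-1. The log2 ratio of togr1-1 over the wild-type had a median of 0.05 over the members and -0.04 over the 13040 loci, and 105 members were above and 89 below the wild-type. The members went both ways, with quartiles of -0.44 and 0.45 and a range from -2.69 to 2.50.

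At 30 °C, 36 members (18.6%) differed, 32 higher (16.5%) and 4 lower (2.06%) in togr1-1. Of all loci tested 6.27% differed, and of the 13040 loci 5.90%, 3.76% higher and 2.15% lower. The share of members higher in togr1-1 was above that of all loci, and the share lower was near it. The rule picked members for low counts in these 30 °C libraries. Their median RPKM was 5.02 in WT-30 and 5.94 in togr-30, beside 15.0 and 14.4 over the 13040 loci. The shares were not compared at matched levels, so they are a description. The median log2 ratio was 0.30 over the members and -0.11 over the 13040 loci. Of the members, 130 were above and 64 below the wild-type, while 38.0% of the 13040 loci were above it. With edgeR's exact test and an assumed coefficient of variation of 0.2 between replicates, 11 members, all higher in togr1-1, passed at 30 °C and 4 at 25 °C. Of all loci tested, 393 of 26435 passed at 30 °C and 187 of 26499 at 25 °C. With an assumed 0.4, 0 members passed at either temperature, beside 32 of all loci at 30 °C and 20 at 25 °C. Of the 308 loci higher in the warm, 41 (13.3%) differed at 30 °C, 7 higher and 34 lower in togr1-1, a count given as a description.

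**Figure D3:**
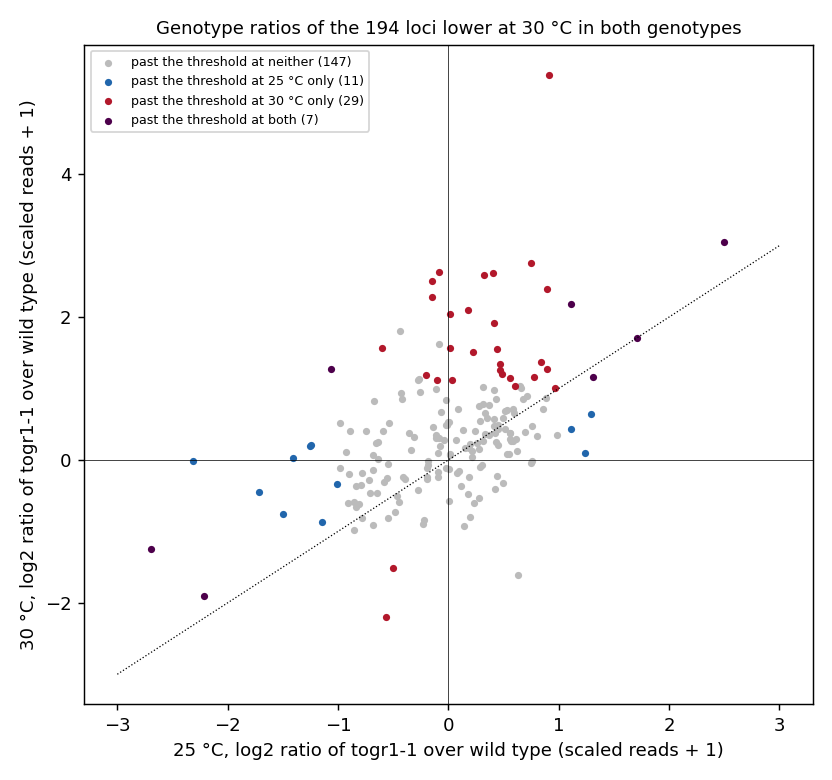
Log2 ratio of togr1-1 over the wild-type at 25 °C (x axis) and at 30 °C (y axis) for the 194 members, coloured by the temperature at which the difference passed the threshold. Points on the dotted line have the same ratio at both temperatures. The 29 red points passed at 30 °C and not at 25 °C. The threshold itself holds them at least 2-fold from equal levels, so only the direction was open, and all but 2 were higher in togr1-1.

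The 32 members that were higher in togr1-1 at 30 °C had a median log2 fall of -2.70 in the wild-type beside -1.48 in togr1-1, and 30 of them fell further in the wild-type. These falls are a description, since each shares its 30 °C library with the difference by which the 32 were picked. At 25 °C the genotypes were within 1.5-fold of each other at 18 of the 32. This was not particular to them: the middle of all 194 members, between log2 quartiles of -0.44 and 0.45, also lay within 1.5-fold at 25 °C. LOC_Os04g49210 had the largest difference, with 127 reads in togr1-1 and 2 in the wild-type at 30 °C. The log2 ratio was 5.39 (interval 4.08 to 9.03, adjusted p = 2.65e-33 in the exact test), and at 25 °C it was 0.91. Among the members with many reads, LOC_Os11g32650, named after its values had been seen, had 10094 reads in WT-25, 10295 in togr-25, 650 in WT-30 and 2728 in togr-30. The levels were close at 25 °C (log2 ratio 0.01, interval -0.03 to 0.05), and togr1-1 was 4.13-fold higher at 30 °C.

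The 11 members that were lower in togr1-1 at 25 °C are described in the same way. Their median log2 falls were -2.84 in the wild-type beside -1.39 in togr1-1, a description as well, since the 25 °C libraries that picked the 11 also enter each fall. At 30 °C the genotypes were within 1.5-fold of each other at 6, and the matching count over all members is not given. LOC_Os07g02460 had 3005 reads in WT-25 and 613 in togr-25, and 247 in WT-30 and 249 in togr-30. The log2 ratio was -2.31 (interval -2.44 to -2.19) at 25 °C and -0.01 (-0.27 to 0.25) at 30 °C, so that a 4.96-fold difference was no longer seen in the warm. LOC_Os10g42610 had 881 reads in WT-25, 137 in togr-25, 97 in WT-30 and 41 in togr-30, and its log2 ratio was -2.69 at 25 °C and -1.24 at 30 °C.

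Of the 47 members that differed at 1 temperature or both, 7 differed at both. Of these 7, 4 were higher and 2 were lower in the mutant each time. The matching shares over all loci are not given, so these counts only describe the members. LOC_Os02g52730 had 130 reads in WT-25, 37 in WT-30, 749 in togr-25 and 318 in togr-30. It was 5.65-fold higher in togr1-1 at 25 °C and 8.27-fold higher at 30 °C. LOC_Os03g22230 had 562 reads in WT-25, 249 in WT-30, 1867 in togr-25 and 825 in togr-30, a log2 ratio of 1.71 at 25 °C and 1.70 at 30 °C. Its falls were 2.20- and 2.22-fold, so the ratio between the genotypes was nearly the same at both temperatures. LOC_Os01g06310 had 1318 reads in WT-25, 209 in WT-30, 287 in togr-25 and 56 in togr-30, and was 4.64-fold lower in togr1-1 at 25 °C and 3.74-fold lower at 30 °C. The 2 remaining loci with the higher level in togr1-1 were LOC_Os07g18230 and LOC_Os07g08150. One locus, LOC_Os02g42740, named after its values had been seen, was lower in togr1-1 at 25 °C, with 251 reads in WT-25 and 121 in togr-25, and higher at 30 °C, with 23 in WT-30 and 58 in togr-30.

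LOC_Os04g45520 was the member furthest below the wild-type in togr1-1 at 30 °C among the 4 lower there. It had 237 reads in WT-25, 108 in WT-30, 162 in togr-25 and 23 in togr-30. The log2 ratio of togr1-1 over the wild-type was -0.56 at 25 °C and -2.20 at 30 °C (interval -2.97 to -1.59, adjusted p = 2.10e-13 in the exact test). This locus was one of the 6 that fell at least 2-fold further in togr1-1, 6.66-fold beside 2.14-fold in the wild-type. At 147 members no genotype difference passed the threshold at either temperature, again without a share over all loci.

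Members were also found next to each other in the order of the loci with a read. Loci without a read were left out of this order and can lie between the 2 of a pair. When the loci with a read were put in the order of their identifiers, which in rice run along each chromosome, 16 members (8.25%) formed 8 pairs of direct neighbours, 1 pair on chromosome 1, 1 on chromosome 2, 1 on chromosome 3, 4 on chromosome 7 and 1 on chromosome 10. Of the 308 loci that were higher at 30 °C in both genotypes, 9.09% lay in such pairs, a share of similar size. Pairs can be related genes, between which the counting could have divided shared reads.

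In 3 pairs both neighbours were higher in togr1-1 at 30 °C. LOC_Os03g28160 had 384 reads in WT-25, 55 in WT-30, 393 in togr-25 and 167 in togr-30, and LOC_Os03g28170 had 294 reads in WT-25, 47 in WT-30, 404 in togr-25 and 142 in togr-30. Their log2 ratios of togr1-1 over the wild-type at 30 °C were 1.56 and 1.55, and the 4 libraries stood in the same order at both loci. LOC_Os07g08150 had 277 reads in WT-25, 49 in WT-30, 698 in togr-25 and 113 in togr-30, and its neighbour LOC_Os07g08160 had 1832 reads in WT-25, 254 in WT-30, 3621 in togr-25 and 517 in togr-30. In this pair togr1-1 was already above the wild-type at 25 °C, by 2.48- and 1.95-fold, and was so at 30 °C, where the log2 ratios had intervals of 0.69 to 1.70 and 0.78 to 1.23. The second of these passed at the very limit of 2-fold. LOC_Os07g32620 had 153 reads in WT-25, 35 in WT-30, 215 in togr-25 and 92 in togr-30, and LOC_Os07g32630 had 1225 reads in WT-25, 205 in WT-30, 1713 in togr-25 and 498 in togr-30. The log2 ratios of this pair were 0.47 and 0.47 at 25 °C and 1.35 and 1.25 at 30 °C.

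**Figure D4:**
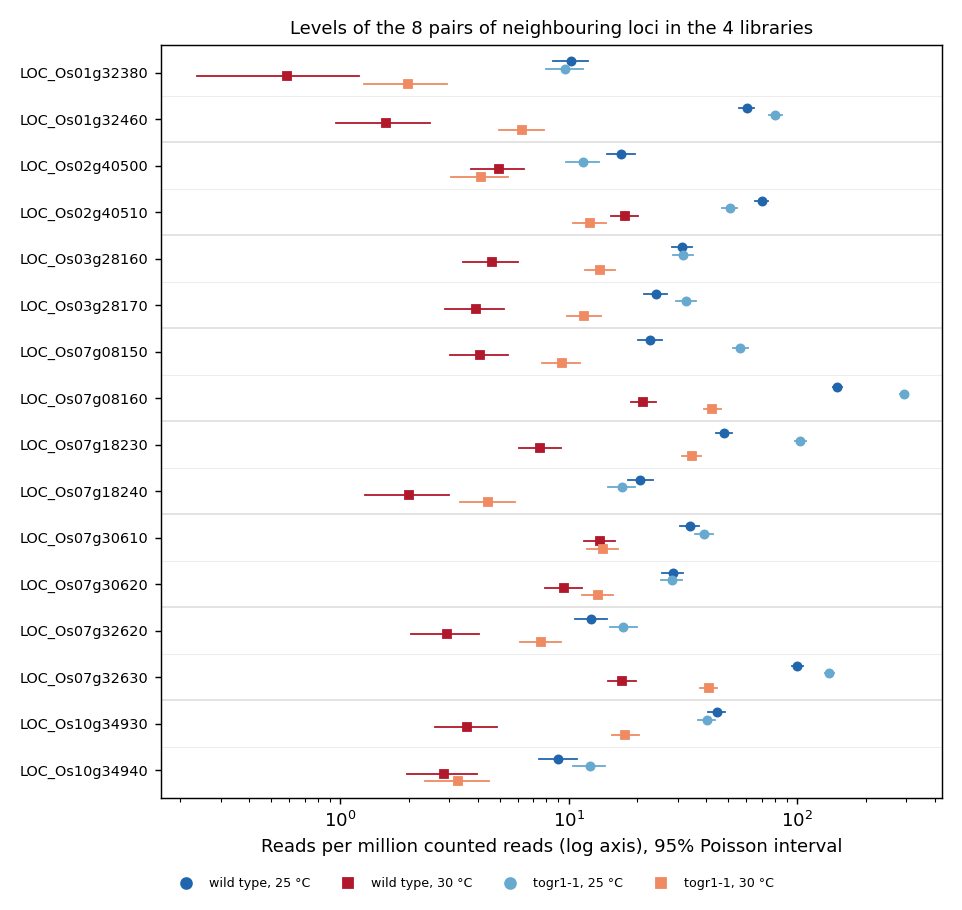
Reads scaled to a common library size (RPM, log axis) of the 16 members in 8 pairs of neighbours in each of the 4 libraries, with 95% Poisson intervals for counting error. Pairs are set apart by the darker lines, and at each of the 16 loci both circles (25 °C) lie to the right of both squares (30 °C).

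In 3 pairs a single neighbour passed the threshold for a genotype difference at 30 °C. LOC_Os10g34930 had 544 reads in WT-25, 43 in WT-30, 497 in togr-25 and 215 in togr-30, and was 4.84-fold higher in togr1-1 at 30 °C, while LOC_Os10g34940 had 110 reads in WT-25, 34 in WT-30, 153 in togr-25 and 40 in togr-30 (log2 ratio 0.21, interval -0.48 to 0.92). LOC_Os07g18230 had 585 reads in WT-25, 90 in WT-30, 1278 in togr-25 and 420 in togr-30, and LOC_Os07g18240 had 252 reads in WT-25, 24 in WT-30, 211 in togr-25 and 54 in togr-30. The first was 4.56-fold higher in togr1-1 at 30 °C, and the second stood 2.17-fold above the wild-type with an adjusted p of 0.005 in the exact test, which misses the threshold. LOC_Os01g32380, with 125 reads in WT-25, 7 in WT-30, 119 in togr-25 and 24 in togr-30, stood beside LOC_Os01g32460, one of the members with the largest falls. The log2 ratios of this pair at 30 °C were 1.62 (interval 0.50 to 3.21) and 1.92 (1.24 to 2.79). On its few reads the first missed the threshold, with an adjusted p of 0.0146 in the exact test.

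In the last pairs neither neighbour differed at 30 °C. LOC_Os02g40500 had 208 reads in WT-25, 59 in WT-30, 143 in togr-25 and 50 in togr-30, and LOC_Os02g40510 had 854 reads in WT-25, 211 in WT-30, 626 in togr-25 and 150 in togr-30. Their log2 ratios of togr1-1 over the wild-type at 30 °C were -0.26 (interval -0.83 to 0.31) and -0.51 (-0.83 to -0.20). LOC_Os07g30610 had 413 reads in WT-25, 164 in WT-30, 486 in togr-25 and 171 in togr-30, and LOC_Os07g30620 had 350 reads in WT-25, 114 in WT-30, 349 in togr-25 and 163 in togr-30. At 30 °C these log2 ratios were 0.04 (-0.28 to 0.36) and 0.49 (0.14 to 0.85). Around the members, 171 neighbours that were not members met the read minimum, and 8 of them (4.68%) had a ratio of at most 0.5 in the wild-type and 6 (3.51%) in togr1-1. Among the 12675 loci that were neither members nor neighbours, the shares were 4.21% and 2.08%. The median log2 ratios of the neighbours were -0.05 and -0.06, beside 0.11 and 0.07 for those other loci. Neighbours that were lower in both genotypes are members and are not counted here.

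By chromosome, members were 0.592% of the loci with enough reads on chromosome 8 (5 of 845) and 2.69% on chromosome 7 (27 of 1005), with the other chromosomes between. Chromosome 1 held 32 members (1.69%), chromosome 10 held 14 (2.22%) and chromosome 12 held 6 (0.882%). The most-read model of a member had a median length of 1637.5 bases, beside 1803.5 over the 13040 loci, and the quartiles were 1203.8 and 2045.8 bases beside 1284 and 2503. Members tended to be shorter, and they had fewer models with a read: 21 members (10.8%) had 2 or more, beside 20.7% of the 13040 loci. A model enters this count only with a read, and reads and length were not matched between members and the 13040 loci.

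The transcript models of a locus were also taken singly. At 15 members 2 or more models had at least 50 reads over the 4 libraries. Of the 31 models of these members, 30 were lower at 30 °C in both genotypes and 22 were at most 0.5 in both, and at 7 of the 15 members every such model was. The rule summed the reads of the models, so the most-read model of each member was largely bound to be lower, and 173 of the 194 members had a single model with a read. The model not lower in both was LOC_Os03g60509.1, named after its values had been seen, with 49 reads in WT-25, 33 in WT-30, 16 in togr-25 and 20 in togr-30, where log2 ratios of -0.53 and 0.33 rest on few reads. Models of a locus share sequence, so their counts are not independent of each other.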

How the data were processed

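Poly(A) RNA of each genotype and temperature, from pooled leaf blades, gave 1 Illumina HiSeq library, 4 in all. The authors deposited raw read counts per transcript model, with no normalization. Beside the counts stand RPKM values by the authors, scaled by transcript length and total reads. They were used for levels and recalculated to within 4.91e-06%. The aligner, genome build and annotation release are not given in the sources used here. Deposited columns with the authors' own log2 ratios, p-values and false discovery rates of the temperatures were not used. The 12 chromosomes were read from the identifiers.

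The members and the lists were chosen with earlier results of these data known. Counts were summed by locus, 1 read was added, and sums were scaled by total reads. Where a model was listed for a single genotype, its count in the other was taken as 0. Genotypes were compared at each temperature by a two-sided exact conditional binomial test with Benjamini-Hochberg adjustment over all loci with a read in either library, and called where the adjusted p was at most 0.001 and the levels differed 2-fold or more. There were no replicates, so p-values describe these libraries and cover counting error only. The tests were checked on simulated data.

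Named loci were the 2 members with the most reads, the 2 with the lowest mean log2 ratio, the 2 highest and 2 lowest in togr1-1 among members that differed at each temperature, the loci nearest the limit, the neighbouring pairs and the loci that the study names. Others are marked in the text. Gene lists and tissue markers by description were left out because no descriptions were matched. The alternatives used edgeR 4.0.16 and DESeq2 1.42.0 in R 4.3.3. All else ran in Python 3.11.15 (numpy 2.4.6, pandas 2.3.3, scipy 1.17.1, matplotlib 3.10.9).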

Additional observations from a re-analysis of the deposited data

Results flagged for a closer look

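LOC_Os02g42740, named after its values had been seen, differed between the genotypes at both temperatures in opposite directions. The log2 ratio of togr1-1 over the wild-type was -1.06 at 25 °C (interval -1.40 to -0.75, adjusted p = 9.31e-11 in the exact test) and 1.28 at 30 °C (interval 0.59 to 2.08, adjusted p = 0.000886). The difference between the 2 ratios was not tested, since it equals the difference of the temperature ratios by which the locus was chosen.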

How the results depend on the processing

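The 194 members were 221 with TMM factors and 218 with DESeq2 size factors, and all 194 were among them. The number was 183 to 196 with 5 or 0.5 reads added, libraries thinned to the smallest total or transcript models taken alone, 250 and 137 with at least 50 and 200 reads, 811 with no read minimum, 25 with a ratio of at most 0.25 and 579 with a fall of at least 1.5-fold. The number of members that differed between the genotypes was 17 to 19 at 25 °C and 34 to 44 at 30 °C under 7 alternatives of scaling, threshold, reads added and depth. Of all loci tested, 619 to 6480 differed at 25 °C and 779 to 7085 at 30 °C. The lowest counts came from testing the 13040 loci alone. With 2-fold alone, 6480 of 26499 and 7085 of 26435 loci differed, a larger share than the 18 and 44 of the 194 members. At 4-fold it was 4 and 13, beside 384 and 690 of all loci tested. With edgeR's exact test it was 4 and 11 at an assumed coefficient of variation of 0.2, where 187 and 393 of all loci passed. At 0.4 it was 0 and 0, where 20 and 32 of all loci passed. Of 580 values of named loci in these contrasts, 517 stayed on their side of the threshold, 56 no longer passed and 7 newly passed. Among values that passed in the main or the alternative setting, 0 reversed. Changes of sign were not counted where a value passed in neither setting, and ratios near 0 can change sign there. Of 300 temperature values, 291 moved by less than counting error, 9 by more and 0 reversed.

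With 1 library per condition the variation between pools of plants was not measured. No paired analysis was possible because the labels give 1 library per condition and no replicate numbers, and leaving out a library leaves no comparison. Depth leaves the place in the list uncertain for the 82 members whose counting interval crosses the 2-fold line in at least 1 genotype.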
